A study of Mus musculus with 4 samples.

Results

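Keratin-associated proteins (KAPs), encoded by the Krtap genes, fill the matrix between the keratin filaments of the hair shaft and cross-link them, largely through disulfide bonds. High-sulfur and ultra-high-sulfur KAPs are rich in cysteine, and high glycine-tyrosine KAPs are rich in those residues and are known mainly from the shaft cortex. The genes are switched on in keratinocytes above the matrix of growing (anagen) follicles, after the hair keratins of the same layers, and are silent in resting follicles. They were taken here as every unique gene symbol that starts with Krtap, which gave 53 of 23203 symbols. By the number after Krtap, 20 were assigned to the high-sulfur, 17 to the ultra-high-sulfur and 14 to the high glycine-tyrosine class, and Krtap31-1 and Krtap31-2 were left unclassified.

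Adult C57BL/6 mice gave the skin, which was profiled by QuantSeq 3′ RNA sequencing in 4 groups with 1 library each. They crossed genotype, wild type (WT) or Egr1 knockout (KO, Egr1-/-), with treatment, naive or an extract of house dust mite (HDM). Wherever 4 values follow each other below, their order is WT naive, KO naive, WT HDM, KO HDM. The stated interest of the study was the transcription factor EGR1 in skin innervation in an atopic dermatitis model. Hair on the ear and neck was shaved, the detergent sodium dodecyl sulfate (SDS) was applied there and to both ears, and 100 mg of HDM cream followed, 2 times a week over 3 weeks. Both naive libraries carry the treatment label SDS, so barrier disruption by SDS is shared by the 4 groups as labelled. The knockout mice had been made on a C57BL6 background and genotyped by PCR. The labels give neither the disrupted part of Egr1, nor the number of animals per library, nor the hair cycle stage.

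Each library held 9444422 to 10130471 reads, recovered from the deposited log2 values. With 1 library per group there is no replicate error, and the intervals below are exact 95% intervals for counting error alone. In KO naive, 336 genes stood at 0 although every other library gave them at least 50 reads, against 0 to 5 such genes elsewhere, and 969 genes had 1 to 20 reads there against 2505 to 3575 in the others. Egr1 itself was not lower in the libraries labelled KO (log2 values of 11.02, 11.53, 10.31 and 11.68). A 3′ tag may lie outside the disrupted part, so this checks no label, and the libraries are called KO-labelled. Salivary and sex-linked transcripts divided the libraries by treatment, while most cartilage transcripts were far lower in KO-labelled HDM skin than in any other library. A list of cartilage genes had 33373, 27927, 19459 and 5601 reads, with 1, 2, 2 and 5 of 13 genes at 0. Of the 5601 reads, 5518 were on Sox9. Cytl1 had 17250, 17121, 11607 and 26 reads, and Acan 2065, 1916, 742 and 31. The list of salivary secretory genes had 695165, 82184, 690 and 160 reads, with 1, 3, 1 and 7 of 11 genes at 0. The Y-linked gene Ddx3y had 1925, 2430, 1 and 1 reads, and Xist 10, 40, 2195 and 2433. The 6 skin markers had reads in every library, but at uneven levels. The basal keratinocyte keratins Krt5 (28160, 16874, 86162 and 82043 reads) and Krt14 (12138, 6384, 36834 and 43935) were higher in both HDM libraries, as was Krt1. Krt10 (11154, 9315, 21992 and 4138) was higher with HDM in WT skin but lower in KO-labelled skin. The dermal collagen gene Col1a1 (92449, 174463, 16575 and 19880) was lower in both HDM libraries, as was Col3a1. By Ddx3y and Xist, the naive libraries were of male type and the HDM libraries of female type. With 1 library per group, the sex-linked and salivary differences cannot be told apart from HDM. The part of the other differences in the Krtap values was not tested.

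The Krtap genes lie in 4 clusters of the mm10 build, with 22 members on chromosome 11 beside the type I keratin genes, 23 on chromosome 16, 5 on chromosome 7 and 3 on chromosome 10. Of the 53 members, 48 had a promoter sequence in the RefSeq table for GRCm38.p6. The sequence TATAAA began 40 to 20 bases before the annotated start, on the gene's own strand, in 28 of them (58.3%), against 1.99% of 32851 promoters of all genes. By class this held for 9 of 17 high-sulfur, 12 of 16 ultra-high-sulfur and 5 of 13 high glycine-tyrosine promoters. The 100 bases before the start are shown for the member with the most reads in each class and for Krtap3-2, the member that departed from the rest in naive skin, which was picked after its values were seen. Capitals mark TATAAA. All are on the minus strand and are written 5′ to 3′.
Krtap11-1 (high-sulfur, chr16:89571184-89571283): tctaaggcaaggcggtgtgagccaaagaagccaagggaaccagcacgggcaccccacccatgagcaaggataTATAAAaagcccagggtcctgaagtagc
Krtap4-16 (ultra-high-sulfur, chr11:99851606-99851705): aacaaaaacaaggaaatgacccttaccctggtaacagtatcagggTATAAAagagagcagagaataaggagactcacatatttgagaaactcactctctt
Krtap8-1 (high glycine-tyrosine, chr16:89487953-89488052): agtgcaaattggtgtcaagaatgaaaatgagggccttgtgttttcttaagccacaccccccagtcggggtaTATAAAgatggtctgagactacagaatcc
Krtap3-2 (high-sulfur, chr11:99556854-99556953): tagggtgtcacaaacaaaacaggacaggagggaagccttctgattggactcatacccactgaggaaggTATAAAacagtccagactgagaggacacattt
TATAAA began 28 bases before the start in Krtap11-1, 29 in Krtap8-1 and 32 in Krtap3-2, and 55 in Krtap4-16. Krtap3-2 thus carried the same core element at nearly the same distance as Krtap11-1 and Krtap8-1.

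Other motifs were searched on both strands of the whole 300 bases (250 before and 50 after the start). The LEF1-type cores CTTTGA and CTTTGT were each in 14 of 48 Krtap promoters (29.2%), against 16% and 18.7% of all promoters. The HOX-type motif TTTATNG was in 7 of 48 (14.6% against 10.9%), and it can overlap TATAAA read on the other strand. TTTACG was in 1 of 48 (2.08% against 3.03%). The EGR core GTGGGCG was in 1 of 48 (2.08% against 7.97%), and TATAAA anywhere in 39 of 48 (81.2% against 13.6%). A match describes letters in this window only.

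In naive skin the Krtap genes were close to the limit of detection. WT naive skin held 302 Krtap reads, or 31.4 per 1000000 reads of the library, spread over 20 members, 17 of which had 1 to 20 reads. KO-labelled naive skin held 896 reads, or 90.0 on the same scale, on 11 members, 8 of which had over 20 reads and 42 members none. Reads in KO-labelled naive skin were thus on fewer genes with more reads each, as for its genes at large. The members with reads in both were Krtap3-2, Krtap16-1, Krtap13-1, Krtap19-9b and Krtap7-1. Another 15 had reads in WT only and 6 in KO-labelled naive skin only. A count of 0 allows up to 3 reads, which is 0.312 and 0.301 on that scale. Whether that limit holds for KO-labelled naive skin, given the genes it lacks, was not tested.

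**Figure D1:**
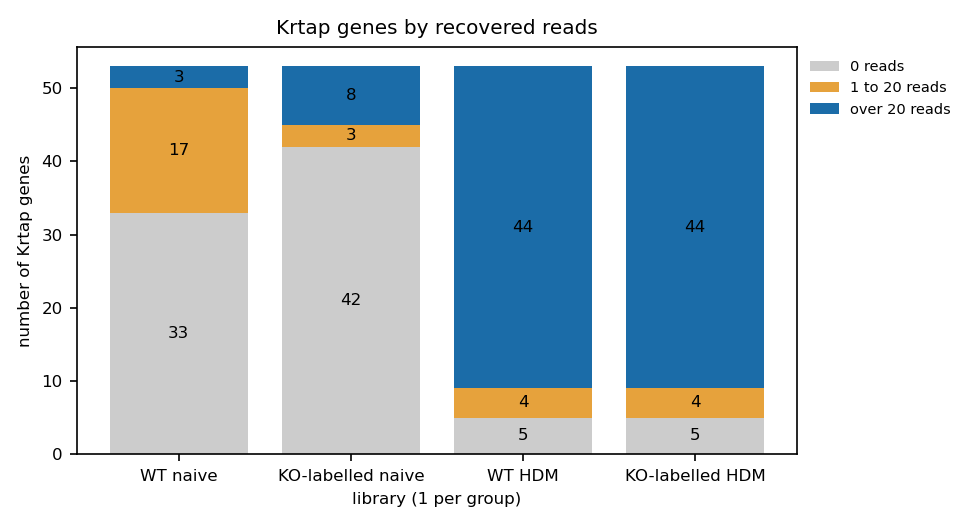
Number of the 53 Krtap genes (vertical axis) with 0 reads, 1 to 20 reads or over 20 reads in each of the 4 libraries (horizontal axis). In naive skin 33 and 42 genes are at 0, and in each HDM library 5 are at 0 and 44 have over 20 reads.

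In HDM skin of both genotypes almost the whole family was present. Krtap reads came to 10420 in WT HDM skin and 28862 in KO-labelled HDM skin (1103 and 2849 on the scale above), with 48 members detected in each. Against the naive library of the same genotype, the summed level was 35.2-fold higher for WT (31.4 to 39.6) and 32.3-fold for KO-labelled skin (30.2 to 34.6). Of the 49 members with a read anywhere, 47 were higher by 2-fold or more in WT skin, with 0 lower and a median log2 difference of 5.75. Among all 17633 genes with a read, 22.6% were higher and 17.2% lower by as much, and the median was 0.03. The 47 members include Krtap20-2 and Krtap9-1, which had 0 reads in WT naive skin and only 1 and 3 in WT HDM skin. That is within the 3 reads that a 0 allows, so no increase is shown for these in WT skin. In KO-labelled skin 46 of 49 were higher and 0 lower (median 7.09), against 33.7% higher and 16.3% lower of all genes and a median of 0.26. Both HDM values lay above both naive values in 46 of 49 members and in 32.3% of all genes with a read. The others were Krtap3-2, Krtap19-1 and Krtap31-2. Krtap9-5, Krtap27-1, Krtap13 and Krtap5-1 had no read in any library. Since these are whole pieces of skin, more shaft-forming cells and more RNA per cell cannot be told apart. The naive and HDM libraries also differed in sex-linked and salivary transcripts, and their hair cycle stage is not given. Differences of sex, tissue piece or hair cycle stage cannot be told apart from HDM here.

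**Figure D2:**
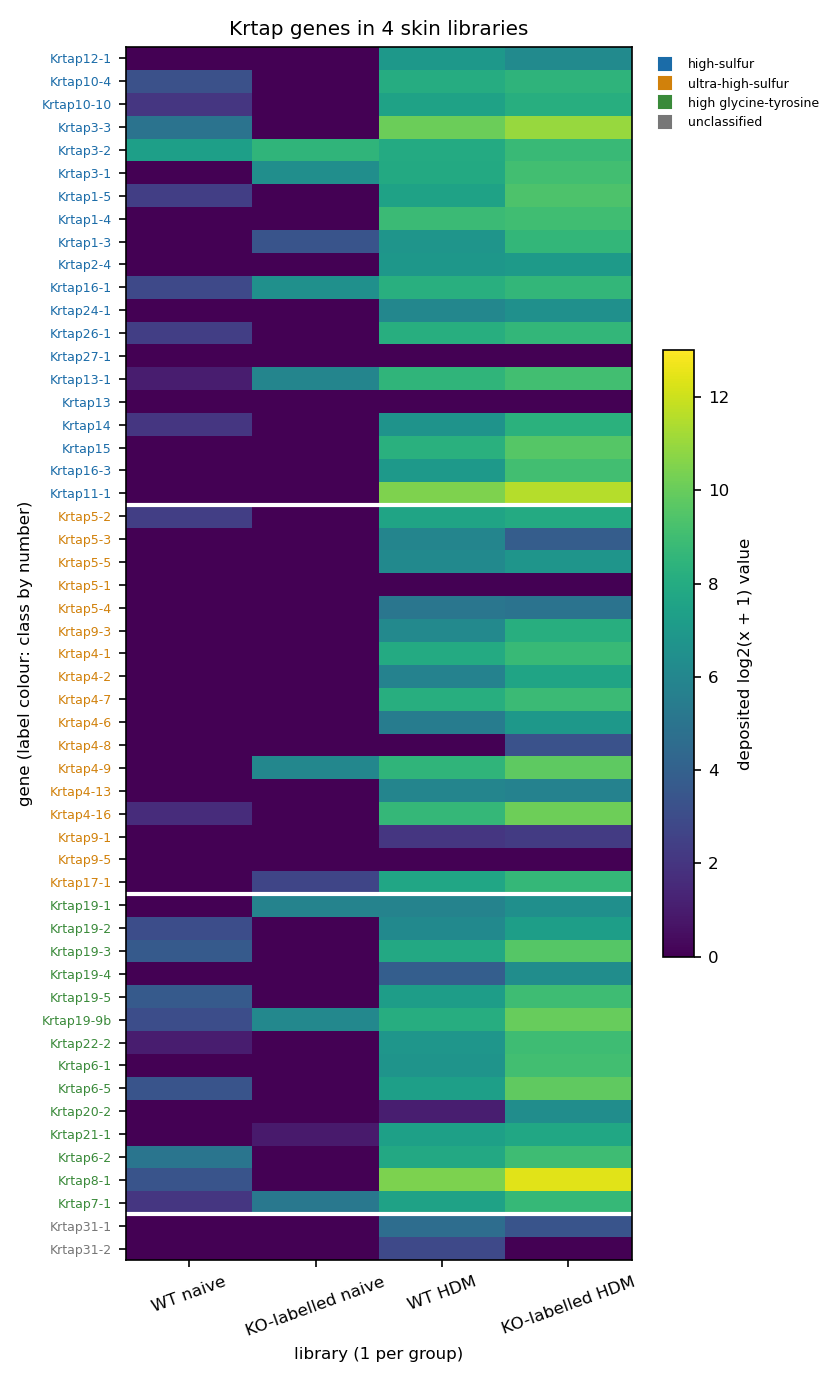
Deposited log2(x + 1) value (colour) of the 53 Krtap genes (vertical axis, grouped by class and then by chromosome and position) in the 4 libraries (horizontal axis). The naive columns are mostly at or near 0, the HDM columns are filled for 48 genes each, and Krtap3-2 is the row with clear signal in all 4.

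A stricter view keeps genes whose average log2 value over the 4 libraries exceeds that of the middle gene, which was 5.11. Only 13 members passed, 6 high-sulfur, 1 ultra-high-sulfur and 6 high glycine-tyrosine, and a member near 0 in naive skin could pass only through high HDM values. Krtap4-16, with an average of 5.11, fell just short, and Krtap6-5, with 5.14, was just inside. Of these 13, 12 were higher by 2-fold or more with HDM in WT skin (14.5% of the 11600 genes that passed, with 12.7% lower) and 12 in KO-labelled skin (21.7%, with 18.2% lower), with medians of 5.32 and 3.92. In KO-labelled skin, 7 of the 13 had reads in the naive library, against 11 of all 53 members.

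Krtap11-1, a high-sulfur KAP of the cortex (chromosome 16, 89570176 to 89571183), was the most abundant high-sulfur member. Its log2 values ran 0.03, 0, 10.51 and 11.57, from 0, 0, 1353 and 3237 reads. It was not detected in either naive library and had the most Krtap reads in WT HDM skin and the second most in KO-labelled HDM skin. With HDM it was at least 460-fold higher in WT skin, and in KO-labelled skin by at least 1082-fold. Krtap3-3 (chromosome 11, 99550130 to 99550865) had 28, 0, 997 and 2150 reads, 36.3-fold higher with HDM in WT skin (25 to 55.0). Krtap15, on chromosome 16, had 0, 0, 278 and 815. Both were thus at 0 in KO-labelled naive skin and highest in KO-labelled HDM skin.

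Krtap3-2 (chromosome 11, 99555823 to 99556853), a neighbour of Krtap3-3 and Krtap3-1 in one family, did not follow the others. On the log2 scale it stood at 7.33, 8.52, 7.95 and 8.83, from 151, 390, 229 and 485 reads. The naive and HDM values overlapped, and both KO-labelled libraries were above both WT libraries. It was 1.55-fold higher with HDM in WT skin (1.26 to 1.91) and 1.25-fold in KO-labelled skin (1.09 to 1.43), and was the only one of the 13 members above the filter to stay under 2-fold in either. It alone gave 151 of the 302 Krtap reads of WT naive and 390 of the 896 of KO-labelled naive skin. Krtap3-1, which lies next to it, had 0, 91, 223 and 570 reads. Within the last 300 bases of their transcripts, Krtap3-1, Krtap3-2 and Krtap3-3 shared no stretch of 50 bases with any other Krtap transcript.

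The other high-sulfur genes with reads in both naive libraries were Krtap16-1 and Krtap13-1. Krtap16-1 (chromosome 11) had 6, 98, 272 and 418 reads, and was 46.3-fold higher with HDM in WT skin (21 to 127) and 4.28-fold in KO-labelled skin (3.43 to 5.39). Krtap13-1 (chromosome 16) had 1, 64, 341 and 573 reads, 8.98-fold higher with HDM in KO-labelled skin (6.93 to 11.8). In both, the order of the 4 libraries was WT naive, KO-labelled naive, WT HDM, KO-labelled HDM. As a class the high-sulfur genes were 27.2-fold higher with HDM in WT skin (23.7 to 31.4) and 18.8-fold in KO-labelled skin (17.4 to 20.4). Krtap3-2 gave 151 of the 208 naive reads of the class in WT and 390 of the 653 in KO-labelled skin. Both folds thus depend on this member, and the class without it was not summed.

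Ultra-high-sulfur genes were the scarcest in naive skin, with 6 reads in WT and 74 in KO-labelled skin, and had 1937 and 4640 in the HDM libraries. The summed level was 330-fold higher with HDM in WT skin (151 to 899) and 62.9-fold in KO-labelled skin (50.0 to 80.2). Of the 74 naive reads in the KO-labelled library, 68 were on Krtap4-9 and 6 on Krtap17-1. Krtap4-16 (chromosome 11, 99850655 to 99851608), the most abundant of the class, had 2, 0, 374 and 1204 reads and log2 values of 1.65, 0, 8.66 and 10.14. Krtap4-9 had 0, 68, 340 and 917 reads, Krtap4-7 had 0, 0, 260 and 493, and Krtap4-1 had 0, 0, 228 and 465. All 4 belong to the Krtap4 family and had their 2 highest values in the HDM libraries. At the other end, Krtap4-8 had 0 reads in WT HDM against 9 in KO-labelled HDM skin, and Krtap9-1 had 3 and 4.

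High glycine-tyrosine genes had 88 and 169 reads in naive skin and 2903 and 11984 in HDM skin. This was 33.7-fold higher with HDM in WT skin (27.2 to 42.1) and 71.1-fold in KO-labelled skin (61.1 to 83.3). Krtap8-1 (chromosome 16, 89487379 to 89487952) had deposited log2 values of 3.40, 0, 10.44 and 12.43, from 9, 0, 1286 and 5869 reads. It was the Krtap gene with the most reads in KO-labelled HDM skin and the second to Krtap11-1 in WT HDM skin, and was 146-fold higher with HDM in WT skin (76.6 to 320). Krtap6-2 had 30, 0, 209 and 532 reads, the smallest HDM difference of the class above the filter in WT skin at 7.11-fold (4.83 to 10.8). Krtap19-1 had 0, 60, 51 and 93 reads. It was 1.55-fold higher with HDM in KO-labelled skin (1.11 to 2.19), its naive value there lying above that of WT HDM skin. Krtap19-2 and Krtap19-3 share a stretch of at least 50 bases near their 3′ ends, so their single values are uncertain. Summed, they had 18, 0, 280 and 970 reads, and were 15.9-fold higher with HDM in WT skin (9.86 to 27.2).

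The genes these proteins work with were higher in the same libraries. Hair shaft keratins, the filament proteins that KAPs cross-link, had 334, 352, 9374 and 21811 reads. Of the 14 with a read, 14 were higher by 2-fold or more with HDM in WT skin and 13 in KO-labelled skin (22.6% and 33.7% of all genes with a read), with medians of 6.13 and 6.54. Above the filter, which most could pass only through their HDM values, these were 9 of 9 in each genotype. The 4 with the most reads were Krt81 (50, 71, 3049 and 8457 reads), Krt85 (37, 0, 1200 and 3375), Krt33a (4, 74, 667 and 2020) and Krt31 (6, 0, 1280 and 1429). Of 9 inner root sheath genes 5 passed the same filter, Krt71 and Krt27 only through their HDM values. These 5 were higher in both genotypes (14.5% and 21.7% of the genes that passed). They were led by Tchh, which encodes trichohyalin (123, 231, 5536 and 21906 reads), and Krt25 (62, 165, 8122 and 17646), followed by Krt71 and Krt73. Below the filter, Krt26 and Krt28 were higher by 2-fold or more in both genotypes, Krt74 had 1 read in all and Krt72 none. The inner root sheath is the mould in which the shaft hardens.

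Regulators and enzymes of shaft formation were mixed. Of 19 genes 13 passed the filter, with 8 higher and 3 lower by 2-fold or more with HDM in WT skin, against 14.5% and 12.7% of all genes that passed. In KO-labelled skin 9 were higher and 0 lower, against 21.7% and 18.2%. The medians were 1.53 and 1.92. The 4 with the most reads are also known from the epidermis. Tgm3, a transglutaminase, had log2 values of 11.40, 11.37, 12.93 and 11.41, Gata3 12.53, 11.67, 11.28 and 11.88, Ovol1 9.30, 8.94, 11.15 and 10.95, and Dlx3 9.18, 9.27, 10.60 and 11.16. Ovol1 and Dlx3 were thus higher in both HDM libraries, while Tgm3 was higher in WT HDM skin and Gata3 in WT naive skin. Hoxc13, a homeobox gene known to control hair keratin and KAP genes and picked here for that role after its values were seen, had 53, 117, 192 and 549 reads. It was higher with HDM by a log2 difference of 1.87 in WT and 2.22 in KO-labelled skin.

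Set against the shaft keratins, the Krtap classes kept different ratios. In WT HDM and KO-labelled HDM skin there were 59.2 (57.3 to 61.2) and 56.1 (54.8 to 57.3) high-sulfur reads per 100 shaft keratin reads. For the ultra-high-sulfur class the values were 20.7 (19.7 to 21.7) and 21.3 (20.6 to 22), with overlapping intervals. The high glycine-tyrosine class had 31.0 (29.7 to 32.3) and 54.9 (53.7 to 56.2). It was the class whose ratio to shaft keratins differed most between the HDM libraries. In WT naive skin the ratios were 62.3, 1.80 and 26.3 in the order of classes above, and in KO-labelled naive skin 186, 21 and 48.0, from few reads. Of the Krtap reads, the high glycine-tyrosine class made up 27.9% in WT HDM against 41.5% in KO-labelled HDM skin, the high-sulfur class 53.3% and 42.4% and the ultra-high-sulfur class 18.6% and 16.1%.

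**Figure D3:**
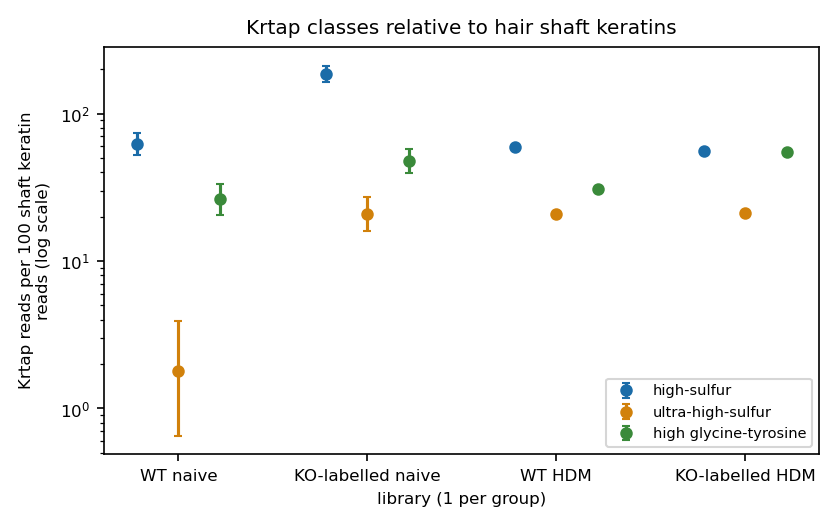
Reads of each Krtap class per 100 hair shaft keratin reads (vertical axis, log scale) in the 4 libraries (horizontal axis), with exact 95% counting intervals. Between the HDM libraries the high-sulfur and ultra-high-sulfur points stay within 56.1 to 59.2 and 20.7 to 21.3, while the high glycine-tyrosine point goes from 31.0 to 54.9.

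The HDM libraries also compare the genotypes in treated skin. Krtap genes were higher in the KO-labelled library, by 2.41-fold in sum (2.36 to 2.47). Other genes differed between the same libraries. Krt10 and Krt1, keratins of the upper epidermis, were lower in the KO-labelled one by log2 differences of -2.61 and -1.94, and 7 of 8 cartilage genes above the filter were lower (median -5.06), while Krt5 and Krt14 differed by -0.27 and 0.06. The part of these differences in the Krtap ratio was not tested. Of 49 members 25 were higher by 2-fold or more and 3 lower, with a median log2 difference of 1.06, against 9.03% higher and 13% lower of all genes with a read and a median of -0.02. Above the filter 9 of 13 were higher and 0 lower (3.06% and 4.66% of all genes that passed), with a median of 1.15. Across the 49 members the levels in the HDM libraries kept much the same order (Spearman's rho of 0.83, across genes of 2 libraries, as a description). Shaft keratins were 2.03-fold higher in sum (1.98 to 2.08), with 5 of 14 higher by 2-fold and 1 lower, and inner root sheath genes 2.46-fold (2.42 to 2.50).

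By class, 12 of 14 high glycine-tyrosine genes were higher by 2-fold or more in KO-labelled HDM skin and 0 lower (median log2 difference 1.82). Among high-sulfur genes these were 7 and 0 of 18 (0.76), and among ultra-high-sulfur genes 6 and 1 of 15 (0.83). Over all genes with a read the shares were 9.03% higher and 13% lower. The summed levels were 3.60-fold (3.45 to 3.75), 1.92-fold (1.86 to 1.98) and 2.09-fold (1.98 to 2.20) higher in the order glycine-tyrosine, high-sulfur, ultra-high-sulfur. Krtap6-5 had 147 reads in WT HDM against 967 in KO-labelled HDM skin, 5.73-fold higher (4.81 to 6.86). Krtap8-1 was 3.97-fold higher (3.74 to 4.23) and Krtap19-9b, with 252 and 1072 reads, 3.71-fold (3.23 to 4.27). Without Krtap8-1 the class was still higher, by 1.72 on the log2 scale. Krtap20-2, with 1 read in WT HDM against 86 in KO-labelled HDM skin, had the widest ratio and the least certain, 74.9-fold (13.1 to 2992).

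By position, on chromosome 16 all 21 members with reads were higher in KO-labelled HDM skin, 16 by 2-fold or more (median 1.63). Of all 17633 genes with a read 8367 were higher at all, and 9.03% by 2-fold or more. These 21 members include all 14 high glycine-tyrosine genes, so the counts by class and by position largely overlap. First in order come Krtap24-1, Krtap26-1, Krtap13-1, Krtap14 and Krtap15, at 1.39, 1.36, 1.46, 3.12 and 2.55-fold. From Krtap19-1 through Krtap6-5 the members follow one another, and the ratios along the cluster were 1.59, 2.18, 3.28, 5.76, 3.39, 3.71, 4.27, 4.49, 4.99 and 5.73-fold for Krtap19-1, 19-2, 19-3, 19-4, 19-5, 19-9b, 16-3, 22-2, 6-1 and 6-5. Krtap19-4 had only 13 reads in WT HDM skin, with an interval of 3.20 to 11.3, and that of Krtap19-1 was 1.12 to 2.28. Krtap16-3 is high-sulfur by its number but lies among these glycine-tyrosine genes, with 0, 0, 117 and 573 reads. Beyond them come, in order, Krtap20-2 with the uncertain 74.9-fold above, Krtap21-1 at 1.25-fold (1.01 to 1.54), Krtap6-2 at 2.22-fold (1.89 to 2.61), Krtap8-1 at 3.97-fold, Krtap7-1 at 2.33-fold (1.94 to 2.80) and Krtap11-1 at 2.08-fold (1.95 to 2.22). The cluster on chromosome 11 had a median of 0.91, with 9 of 21 higher by 2-fold or more and 2 lower (9.03% and 13% of all genes with a read). There, Krtap1-5 was 3.69-fold higher (3.12 to 4.40) while its neighbour Krtap1-4 was 1.11-fold (0.978 to 1.26). Krtap1-4 shares part of its 3′ end with another Krtap transcript, which was not identified, so its value is uncertain.

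Some families are known mainly from the shaft cuticle, the overlapping outer scales. They were picked after their values were seen and are given as values only. The Krtap5 genes on chromosome 7 were 1.11-fold higher in sum (0.960 to 1.29), the Krtap10 genes on chromosome 10 1.43-fold (1.26 to 1.62) and Krtap24-1 1.39-fold (0.999 to 1.96). The intervals of the Krtap5 sum and of Krtap24-1 include a ratio of 1. Krtap12-1, with 111 and 78 reads, was 1.63-fold lower (1.21 to 2.21). Krtap17-1, also a cuticle gene, was 1.97-fold higher (1.65 to 2.35), an interval that holds the shaft keratin ratio. The 3 members lower by 2-fold or more were Krtap5-3 with 56 reads in WT HDM against 14 in KO-labelled HDM skin (4.59-fold, 2.52 to 8.93), Krtap31-1 with 22 and 10, and Krtap31-2 with 6 and 0. All 3 had few reads. Krtap10-4, Krtap10-10 and Krtap12-1 lie within Tspear, Krtap14 and Krtap15 overlap each other on opposite strands as well as 4930553J12Rik, and Krtap24-1 overlaps Gm49688. Krtap10-4 and Krtap10-10 also overlap Gm2696. Krtap12-1 and Krtap10-10 are on the same strand as Tspear, and Krtap15 on that of 4930553J12Rik, so strand could not separate these. Whether strand was used in counting is not given in the sources used here. These 6 values may therefore include reads of an overlapping gene.

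**Figure D4:**
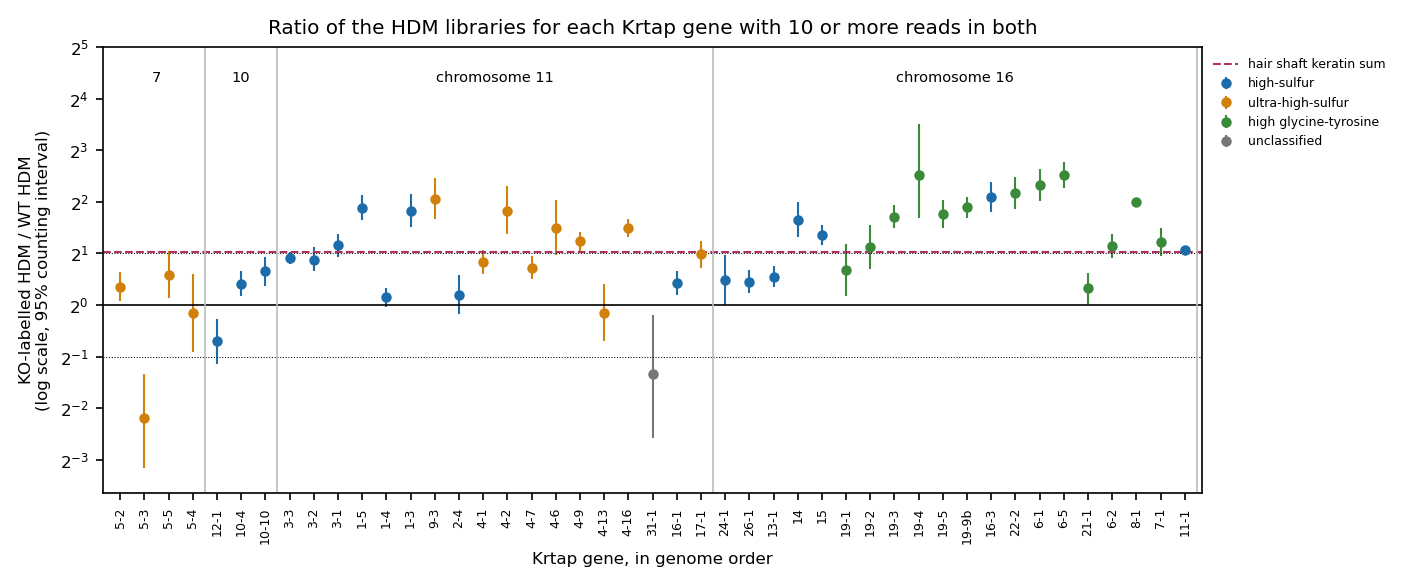
Ratio of KO-labelled HDM to WT HDM skin (vertical axis, log scale, with 95% counting intervals) for each of the 45 Krtap genes with 10 or more reads in both, in genome order (horizontal axis) and coloured by class. The dashed line is the hair shaft keratin sum at 2.03-fold and the dotted lines are 2-fold either way. The high glycine-tyrosine genes of chromosome 16 lie mostly above the dashed line, and the genes of chromosomes 7 and 10 below it.

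KO-labelled against WT naive skin gave no common direction. Of 49 members 10 were higher by 2-fold or more and 15 lower (12.7% and 28.8% of all genes with a read), with a median log2 difference of -0.03. All 15 lower members had 0 reads in KO-labelled naive skin. Among them, Krtap10-10, Krtap14, Krtap4-16 and Krtap22-2 had only 3, 3, 2 and 1 reads in WT naive skin. That is within the 3 reads that a 0 allows, so no decrease is shown for these. The largest differences upward above the filter were in Krtap3-1 (0 and 91 reads), Krtap4-9 (0 and 68) and Krtap13-1 (1 and 64). Those downward were in Krtap6-2 (30 and 0), Krtap3-3 (28 and 0) and Krtap19-3 (11 and 0). Above the filter, 7 of 13 were higher and 5 lower (13.6% and 17.1% of the genes that passed), with a median of 1.19. The sum over all members was 2.63-fold higher (2.31 to 3.01), with 390, 98 and 91 of the 896 reads on Krtap3-2, Krtap16-1 and Krtap3-1. The part of the missing low-count genes of this library in these values was not tested.

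To use all 4 libraries at once, limma was run with additive terms for HDM and genotype on the 11600 genes above the filter. It leaves 1 residual degree of freedom, assumes that both genotypes respond alike, and borrows most of its error from other genes. In this limma fit 7 of 13 Krtap members were called higher with HDM at a Benjamini-Hochberg adjusted p under 0.05 and 0 lower, against 2.25% and 1.87% of all genes. Of these 13 members 8 had 0 reads in at least 1 naive library, and only Krtap3-2 had both naive log2 values above the cut of 5.11. All members but Krtap3-2 passed the filter through their HDM values. This makes the count a description of members chosen partly by being high with HDM. Without the filter 35 of 49 members were called higher, against 4.41% of all genes. The 2 with the smallest adjusted p were Krtap11-1, with a log2 difference of 11.03 (SE 1.19, limma adjusted p = 0.00173), and Krtap8-1, with 9.74 (SE 1.18, limma adjusted p = 0.00336). Both were higher in both genotypes. Without the intensity trend in the limma variance only 1 of the 13 was called. For Krtap3-2 the difference was 0.47 (SE 0.47, limma adjusted p = 0.617). The genotype term in limma called 0 Krtap members and 0% of all genes, and 4 of the 13 members and 3.28% of all genes had an unadjusted p under 0.05.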

How the data were processed

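Skin RNA of 4 groups with 1 library each was sequenced from 500 ng total RNA with a QuantSeq 3′ kit, per the labels. The authors deposited log2 values (of a quantity plus 1), 1 table of 23282 lines for each library. Bowtie2, bedtools and mm10 are named, without role or version, in the submitters' processing notes. The normalization is not given in the sources used here. Once the log was undone, small values were whole multiples of a step, 1.056, 0.936, 1.08 and 0.939 in WT naive, KO naive, WT HDM and KO HDM. Dividing by it and rounding recovered reads. Of genes with up to 200 reads, 95.7% to 98.9% came out whole within 0.1 read. Log2 values near 0.03 in the WT libraries round to 0 reads.

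Symbols on more than 1 line (35 on 79 lines) were left out. The expression filter was a mean above the median of all unique symbols. A gene was counted as higher or lower at a log2 difference of at least 1. Ratios of reads have exact Clopper-Pearson 95% intervals, and a 0 was set to 3 reads for folds given as at least. Reads have no molecular identifiers, so intervals cover counting error only. A 3′ library gives about 1 tag per transcript, so values were not divided by length. Named genes were the 4 members with the most reads per class, the 3 largest and smallest differences above the filter per comparison and members above the filter under 2-fold with HDM, and the 4 genes with the most reads of each other list. Any other gene named was picked after its values were seen. Members, classes and lists were chosen with earlier results of these data known. Gene positions and 3′ ends came from GENCODE M21 (mm10). Recovery, intervals and the limma fit were tested on simulated data. The fit used limma 3.58.1 in R 4.3.3, and intervals came from scipy 1.17.1 under Python 3.11.15. Alternatives were other filters, scales, pseudocounts and groupings of members.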

Additional observations from a re-analysis of the deposited data

Results flagged for a closer look

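Of the 49 members with reads, 10 (20.4%) were lower by 2-fold or more in KO-labelled than in WT naive skin and higher by 2-fold or more in KO-labelled than in WT HDM skin, and 0 showed the opposite. Over all 17633 genes with a read these shares were 3.61% and 1.59%. Among high-sulfur and ultra-high-sulfur genes, the log2 differences in naive and HDM skin were -2.39 and 1.88 for Krtap1-5, -2.07 and 1.63 for Krtap14, and -1.65 and 1.48 for Krtap4-16. In the Krtap19 family they were -3.07 and 1.11 for Krtap19-2, -3.66 and 1.71 for Krtap19-3, and -3.66 and 1.76 for Krtap19-5. Among the other high glycine-tyrosine genes they were -1.06 and 2.16 for Krtap22-2, -5.03 and 1.15 for Krtap6-2, -3.4 and 2.51 for Krtap6-5, and -3.4 and 1.99 for Krtap8-1. All 10 had 0 reads in KO-labelled naive skin and 1 to 30 in WT naive skin. Krtap22-2, Krtap4-16 and Krtap14 had only 1, 2 and 3 reads in WT naive skin. That is within the 3 reads that a 0 allows, so no decrease is shown for them. The KO-labelled naive library also had 336 genes at 0 that every other library gave at least 50 reads. The part of this in the 10 members was not tested. The difference between these contrasts was not tested, since each group held 1 library.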

How the results depend on the processing

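Of 76 alternatives, 47 kept a count or median within 1.5 times or a sum within its counting interval, 28 moved it further and 1 turned its sign. Without the filter, members past 2-fold were 47 (HDM in WT skin), 46 (HDM in KO-labelled skin), 25 (genotype in naive skin) and 28 (genotype in HDM skin). With the filter at the upper quartile only Krtap3-2 was left, and the counts were 0, 0, 1 and 0. The median log2 HDM difference in WT skin was 4.20 from reads per 1000000 and 4.21 with log2(x + 10), against 5.32. In KO-labelled skin it was 7.09 without the filter and 6.64 with WT naive in place of KO naive, against 3.92. The median genotype difference in naive skin went from 1.19 to -0.03 without the filter. Without the member with the most reads, the summed HDM difference was 4.37 (high-sulfur) and 4.38 (high glycine-tyrosine) in WT skin. In KO-labelled skin it was 3.79 (high-sulfur), 5.54 (ultra-high-sulfur) and 5.18 (high glycine-tyrosine), and with WT naive in place of KO naive 5.71, 9.43 and 6.92. The genotype difference under HDM was 1.04, 1.16 and 1.94 from reads per 1000000, and 0.94 (ultra-high-sulfur) and 1.72 (high glycine-tyrosine) without the top member. The additive limma fit called 1 member without the intensity trend, 35 of 49 without the filter and 12 with log2(x + 10), against 7, and its genotype term called 0 members in each. The cause of these shifts was not tested. Using WT naive, summing shared 3′ ends and moving Krtap16-3 to the glycine-tyrosine class were chosen after seeing the data. Grouping by RefSeq proteins was not run. No paired analysis was possible because each group held 1 library. In naive skin, depth limits single members to a few reads.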
